A study of Mus musculus with 28 samples.

Results

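NMDA receptors are glutamate-gated cation channels of excitatory synapses, and the 7 genes described here encode all of their subunits in the mouse. The members were taken by gene symbol (Grin1, Grin2a, Grin2b, Grin2c, Grin2d, Grin3a and Grin3b) from the 23038 genes of the deposited expression tables, and each of the 7 was found and passed the filter on low counts in every comparison. The libraries are bulk polyA RNA-seq of dissected brain tissue from mice backcrossed to C57BL/6J. Nova1 hu/hu mice carry, on both alleles, a CRISPR/Cas9 knock-in that replaces a single amino acid of the splicing regulator NOVA1 with the human residue, together with silent changes used for genotyping. Their Nova1 wt/wt littermates carry the mouse allele. E18.5 midbrain (late embryonic) was represented by 6 hu/hu and 6 wt/wt libraries, P21 midbrain (postnatal) by 4 and 4, and P21 cortex by 4 and 4, which gives 28 libraries. The substitution is present in every cell of a hu/hu mouse, so no cell type was targeted.

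An NMDA receptor opens when glutamate and a co-agonist, glycine or D-serine, are bound and depolarization has removed the magnesium block of the pore. Every receptor contains GluN1, the Grin1 product, which binds the co-agonist. The Grin2 products bind glutamate and set how long the channel stays open, how easily magnesium blocks it and where the receptor is placed, while the Grin3 products bind glycine and lower calcium entry. Forebrain development is known for a change from receptors rich in the Grin2b product to receptors that also hold the Grin2a product, and Grin2d is known as an early and subcortical gene.

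On the GRCm38.p6 assembly, Grin1 lies on the minus strand at chr2:25291177-25319187. The Grin2 genes lie on the minus strand at chr16:9567901-9996083 (Grin2a), chr6:135713221-136173615 (Grin2b), chr11:115249169-115267297 (Grin2c) and chr7:45831883-45871194 (Grin2d). Grin3a lies on the minus strand at chr4:49661611-49846023, and Grin3b on the plus strand at chr10:79970397-79977190. Start-site windows, from 250 bases before to 50 bases after a RefSeq transcript start, were found for 4 members (Grin1, Grin2c, Grin2d and Grin3b). They were searched on both strands for the GC box, the letters GGGCGG or CCGCCC, a motif that Sp-family factors can bind. Grin1 held 1 match and Grin2c 3, against none in Grin2d and Grin3b, while 35.7% of all 32851 windows held at least 1. The windows of Grin2d (chr7:45866632-45866931) and Grin3b (chr10:79970474-79970773) lay wholly inside the gene spans given above. They are thus at internal starts, and other starts of these genes were not searched. For the members whose window held the motif, the stretch around the match nearest to the window's 5′ end is shown, with every GC box in it in capitals.
Grin1, chr2:25319162-25319191, minus strand: gtcaggaagcggGGGCGGtgggaggggtag
Grin2c, chr11:115267276-115267305, minus strand: ggtggccggctgGGGCGGgccgGGGCGGgg
The Grin1 match began at base 9 of the transcript. The leading match of the Grin2c stretch, which holds 2 of that gene's 3, began 50 bases before the start of the RefSeq transcript used. That place still lies within the Grin2c span given above. These matches are descriptions of the letters and were not tested against the measurements.

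Levels are given in TPM (transcript abundance as counts over exon length, scaled to a fixed total in each library and computed here from the deposited values), so a level is a share of the RNA of the tissue. In bulk tissue, fewer cells of a type and less RNA per cell cannot be told apart. Total counts ran from 18550922 to 45134998 per library. Cortical excitatory neuron markers summed to 1888 to 2091 TPM in cortex and to 134 to 160 TPM in P21 midbrain, and midbrain neuron markers to 10.3 to 20.5 TPM in cortex and to 157 to 192 TPM in P21 midbrain, so both regions carried the markers of their label. Nova1 itself measured 115.6 ± 10.6 TPM (SD, n = 12) in embryonic midbrain, and at P21 48.9 ± 2.69 TPM (SD, n = 8) in midbrain and 24.4 ± 0.950 TPM (SD, n = 8) in cortex. Its log2 difference between genotypes was -0.01, 0.05 and 0.02 in these tissues, and a gene count cannot see a substitution, so it does not check the genotype labels.

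Grin1, the obligatory subunit, measured 58.9, 74.3 and 91.7 TPM (lowest, median and highest of 6) in E18.5 midbrain wt/wt and 58.9, 73.5 and 79.8 TPM in hu/hu. In P21 midbrain its level was 183.8, 193.6, 187.6 and 184.0 TPM in wt/wt and 188.4, 187.6, 188.6 and 180.8 TPM in hu/hu. In P21 cortex it was 220.7, 244.6, 219.3 and 232.4 TPM in wt/wt and 209.8, 222.2, 228.4 and 227.0 TPM in hu/hu. All 16 P21 libraries lay above all 12 embryonic libraries, every cortex library lay above every P21 midbrain library, and the genotypes overlapped in each tissue. Relative to the mean the spread was widest before birth (coefficient of variation 12.2% and 15.8% in hu/hu and wt/wt, against 2.01% to 5.15% in the P21 groups), where replicates 1 and 4 were the lowest libraries of both genotypes.

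Grin2a, whose product gives fast-closing receptors and is typical of the mature forebrain, was a low gene. Its lowest, median and highest TPM in E18.5 midbrain were 2.10, 3.10 and 3.72 in wt/wt and 1.70, 2.24 and 3.21 in hu/hu, from 44 to 100 counts per library in hu/hu and no fewer than 54 in wt/wt. In P21 midbrain it measured 7.82, 6.11, 8.45 and 4.75 TPM in wt/wt and 7.79, 6.68, 7.62 and 6.84 TPM in hu/hu. In P21 cortex it measured 9.22, 9.09, 13.9 and 10.96 TPM in wt/wt and 12.2, 8.70, 12.8 and 8.36 TPM in hu/hu. The ages did not overlap in midbrain, whereas 1 cortex library, hu/hu replicate 4, lay within the range of P21 midbrain.

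Grin2b, whose product gives slower receptors and is present from before birth, measured 23.7, 27.6 and 31.3 TPM (lowest, median, highest) in embryonic wt/wt midbrain and 25.1, 27.3 and 28.95 TPM in hu/hu. In P21 midbrain its values were 13.4, 16.3, 22.8 and 16.1 TPM in wt/wt and 19.4, 16.5, 21.6 and 16.5 TPM in hu/hu. In P21 cortex they were 64.2, 63.8, 57.5 and 61.9 TPM in wt/wt and 64.9, 66.6, 56.6 and 63.4 TPM in hu/hu. The 8 cortex libraries stood far above the other 20, and P21 midbrain stood below E18.5 midbrain without overlap.

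Grin2c, best known from cerebellar granule cells, thalamus and astrocytes, was near the bottom of the family before birth and rose steeply. E18.5 midbrain held 2.43, 3.08 and 3.42 TPM (lowest, median, highest) in wt/wt and 2.22, 2.66 and 3.53 TPM in hu/hu. P21 midbrain held 33.3, 33.9, 32.4 and 34.8 TPM in wt/wt and 33.4, 34.3, 35.8 and 32.8 TPM in hu/hu, and P21 cortex 38.4, 40.8, 34.1 and 38.4 TPM in wt/wt and 37.9, 44.7, 34.8 and 43.8 TPM in hu/hu. No P21 library came near the embryonic range, and the regions overlapped at P21.

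Grin2d, whose product gives the slowest-closing receptors and little magnesium block, went the other way. It measured 61.3, 77.8 and 86.6 TPM (lowest, median, highest) in E18.5 midbrain wt/wt and 56.9, 68.2 and 91.5 TPM in hu/hu. P21 midbrain gave 30.3, 28.98, 31.2 and 33.2 TPM in wt/wt and 30.6, 28.4, 29.6 and 27.97 TPM in hu/hu, and P21 cortex 17.1, 16.7, 13.4 and 14.6 TPM in wt/wt and 14.7, 16.003, 14.5 and 15.5 TPM in hu/hu. Embryonic midbrain, P21 midbrain and cortex formed 3 separate levels in descending order.

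Grin3a, whose product limits calcium entry and is known as a gene of developing synapses, had the same order of tissues. Its E18.5 midbrain values were 70.4, 73.4 and 86.0 TPM (lowest, median, highest) in wt/wt and 63.3, 71.3 and 74.4 TPM in hu/hu. In P21 midbrain it was at 29.4, 28.2, 32.3 and 28.8 TPM in wt/wt and 32.4, 28.6, 29.4 and 28.6 TPM in hu/hu, and in P21 cortex at 14.6, 12.2, 18.8 and 12.5 TPM in wt/wt and 14.3, 10.96, 14.2 and 13.5 TPM in hu/hu. Here too no library of a tissue reached the range of the next.

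Grin3b, known from motor neurons of the brainstem and spinal cord, was the lowest member in all 3 tissues. E18.5 midbrain held 0.971, 1.61 and 1.71 TPM (lowest, median, highest) in wt/wt and 1.095, 1.69 and 4.67 TPM in hu/hu, from 20 to 109 counts. P21 midbrain held 3.75, 3.17, 2.52 and 4.11 TPM in wt/wt and 3.49, 3.49, 3.99 and 2.85 TPM in hu/hu, and P21 cortex 1.46, 1.58, 1.04 and 1.22 TPM in wt/wt and 1.09, 1.63, 1.23 and 1.77 TPM in hu/hu. P21 midbrain was the highest tissue, except that hu/hu replicate 5 of E18.5 midbrain exceeded every P21 library.

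**Figure D1:**
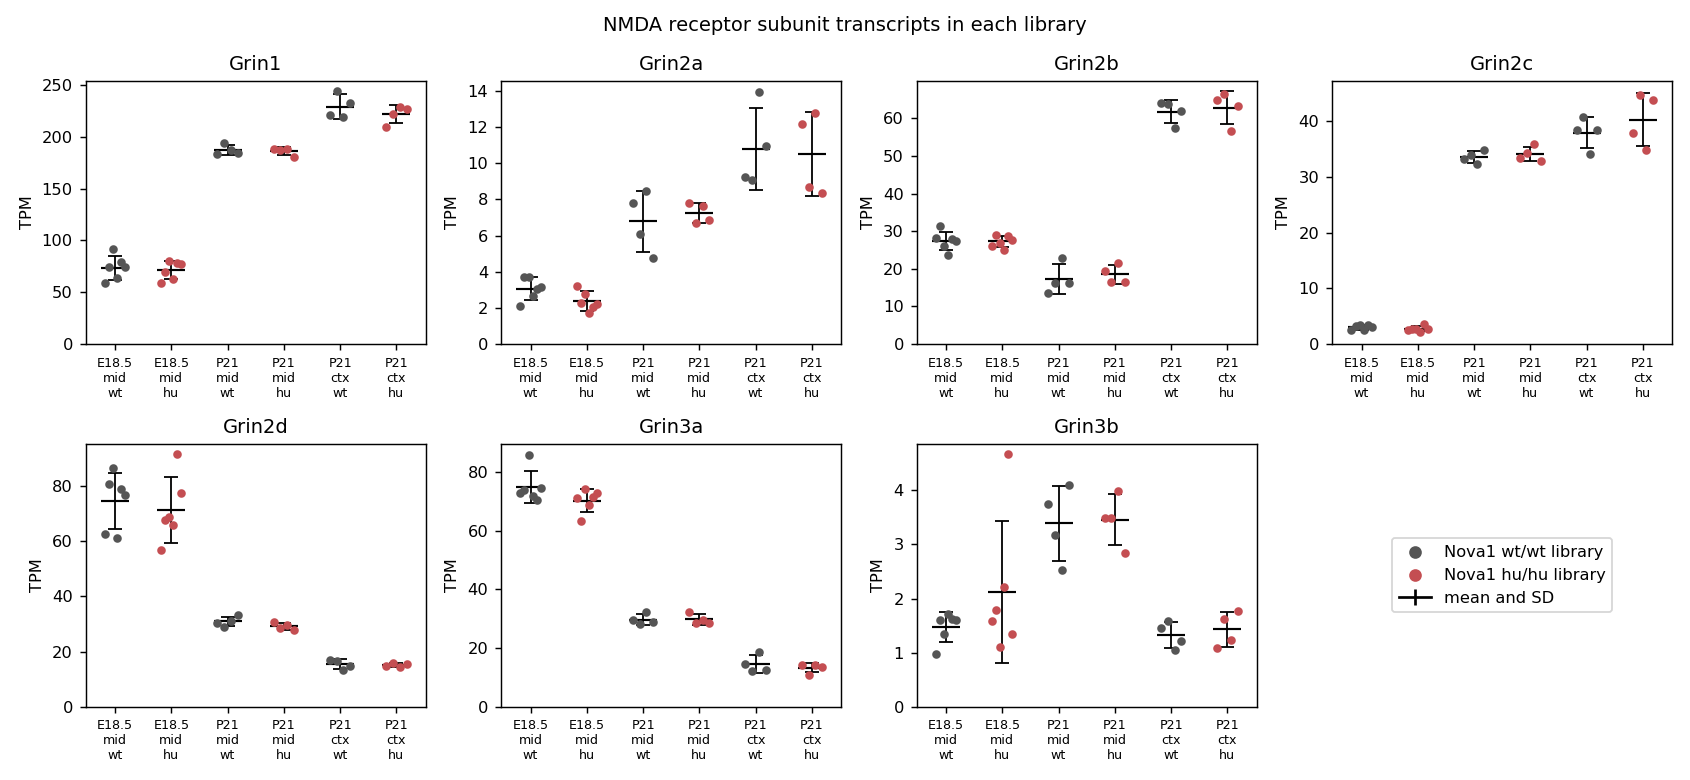
TPM of each NMDA receptor subunit gene (y axis, linear, from 0) in each library, grouped by tissue (mid, midbrain; ctx, cortex) and Nova1 genotype (x axis), with the group mean and SD. Grin1, Grin2a and Grin2c sit higher at P21 than at E18.5, Grin2d and Grin3a sit lower, Grin2b stands out in cortex, and wt/wt and hu/hu points overlap in every panel.

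Between genes, levels were compared only per length, in TPM. In E18.5 midbrain the order was Grin2d (73.0), Grin3a (72.7) and Grin1 (72.4), which overlapped, then Grin2b (27.3), Grin2c (2.86), Grin2a (2.72) and Grin3b (1.80), of which neighbours after Grin2b overlapped. In P21 midbrain Grin1 (186.8) led, followed by Grin2c (33.8), Grin2d (30.02) and Grin3a (29.7), which overlapped in that order, then Grin2b (17.8), Grin2a (7.01) and Grin3b (3.42). In P21 cortex the order was Grin1 (225.6), Grin2b (62.3), Grin2c (39.1), Grin2d (15.3), Grin3a (13.9), Grin2a (10.7) and Grin3b (1.38), with overlap of Grin2d, Grin3a and Grin2a as neighbours. The 7 genes summed to 252.7 ± 24.4 TPM (SD, n = 12), 308.6 ± 7.60 TPM (SD, n = 8) and 368.3 ± 10.6 TPM (SD, n = 8) in these tissues, and Grin1 made up 28.6%, 60.5% and 61.2% of the sum.

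That order depends on the exon length by which the counts are divided. The deposited length of Grin2a, 4098 bases, is shorter than its coding sequence of 4392 bases in the GENCODE annotation and than its longest transcript of 14634 bases, and Grin2b was deposited with 7512 bases against 24060. Grin1 was deposited with 9037 bases, more than the 4276 of its longest transcript. With the longest transcripts as lengths, Grin1 led at E18.5, Grin2c stood above Grin2b in cortex, and Grin2a was the lowest member in both midbrain sets. Only the divisor changed here: the deposited counts were kept and were not retaken over the longest transcripts. Where a longest transcript exceeds the deposited length, they may not cover it. These orders thus show how the values respond to the divisor and are not better estimates. Fold changes of a single gene and of a ratio of single genes do not depend on these lengths, whereas sums and shares do.

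Between E18.5 and P21 midbrain, all 7 members changed, and 85.6% of the 16330 genes tested did so, so a call is common in this comparison. Higher at P21 were 4 members, beside 42.4% of all genes, and lower were 3, beside 43.3%. The median log2 fold change was 1.15 over the members and -0.02 over all genes tested. Calls here are at p under 0.05 and adjusted p under 0.1 by the quasi-likelihood test of edgeR, with p adjusted after Benjamini and Hochberg over all genes tested, with genotype as a term and 12 embryonic against 8 P21 libraries.

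Grin2c changed most, rising 13.6-fold (log2 3.76, SE 0.0609, adjusted p = 1.99e-26). Grin1 rose 2.97-fold (log2 1.57, SE 0.0577, adjusted p = 5.30e-19) and Grin2a 2.98-fold (log2 1.58, SE 0.121, adjusted p = 3.90e-12). Grin3b rose 2.22-fold (log2 1.15, SE 0.188, adjusted p = 3.81e-06). Of the members that fell, Grin3a was 2.12-fold lower (log2 -1.09, SE 0.0430, adjusted p = 2.65e-18) and Grin2d 2.11-fold lower (log2 -1.08, SE 0.0672, adjusted p = 5.21e-14). Grin2b was 1.33-fold lower (log2 -0.41, SE 0.0729, adjusted p = 1.12e-05), the smallest change of the family. Folds here and between the regions were fitted on counts with edgeR's scaling factors. They therefore differ from ratios of the mean TPM levels, as for Grin2c (means of 2.86 TPM at E18.5 and 33.8 TPM at P21). The labels give no sequencing batch, so a batch between the ages cannot be told apart from age.

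The cellular makeup of the midbrain samples also differed between the ages. All 6 oligodendrocyte markers rose (median log2 8.31), from a summed 91.4 to 136 TPM in E18.5 libraries to 21434 to 24055 TPM at P21, and 5 of 6 astrocyte markers rose, from a summed 634 to 970.5 TPM to 3696 to 4175 TPM. The 6 pan-neuronal markers summed to 3773 to 4306 TPM at E18.5 and to 3771 to 4134 TPM at P21, with 3 of them called in each direction. Tubb3 fell from 2211 to 742 TPM on average and Snap25 rose from 328 to 2337 TPM. The similar sums thus do not measure whether the neuronal content was the same. The part of these shifts in the subunit values was not tested.

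In P21 cortex against P21 midbrain, all 7 members again differed, beside 75.6% of the 16345 genes tested. Higher in cortex were 4 members (37.7% of all genes) and lower were 3 (37.9%), by the same test with 8 libraries a region. The median log2 difference was 0.28 over the members and -0.00 over all genes tested. The P21 midbrain libraries enter both the age and the region comparison.

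Grin2b had the largest difference, 3.68-fold higher in cortex (log2 1.88, SE 0.0757, adjusted p = 6.48e-17 by edgeR's quasi-likelihood test). Grin2a was 1.61-fold higher (log2 0.69, SE 0.118, adjusted p = 1.31e-05), Grin1 1.27-fold (log2 0.35, SE 0.0252, adjusted p = 7.71e-12) and Grin2c 1.22-fold (log2 0.28, SE 0.0437, adjusted p = 3.15e-06). Grin3b was 2.36-fold lower in cortex (log2 -1.24, SE 0.126, adjusted p = 4.16e-09), Grin3a 2.03-fold lower (log2 -1.02, SE 0.0744, adjusted p = 7.94e-12) and Grin2d 1.86-fold lower (log2 -0.89, SE 0.0452, adjusted p = 6.16e-15). Thus the subunits that were higher in cortex were Grin1 and the other Grin2 genes, and those lower in cortex were Grin2d and both Grin3 genes. Oligodendrocyte markers were lower in cortex for 6 of 6 genes, with sums of 6298 to 7085 TPM, 5 of 6 astrocyte markers were lower, and pan-neuronal markers, 5 of 6 higher, summed to 4386 to 4726 TPM there. The part of these in the subunit values was not tested.

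**Figure D2:**
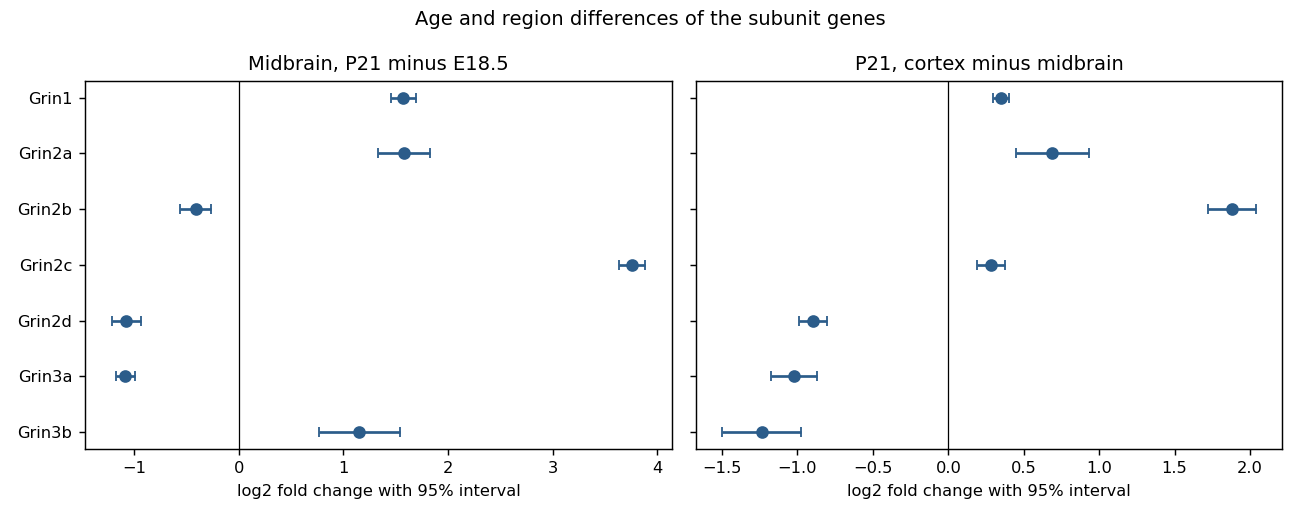
Log2 fold change (x axis) of each subunit gene (y axis) from edgeR, with 95% intervals as bars, between the ages in midbrain (left) and between the regions at P21 (right). Grin2c has the largest age change at 3.76 and Grin2b the largest region difference at 1.88, and no interval reaches 0.

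Ratios of subunits within a library do not depend on library size. The Grin2a to Grin2b ratio was 0.0995 ± 0.0241 (SD, n = 12) in E18.5 midbrain, from 0.0676 to 0.142, and 0.399 ± 0.0830 (SD, n = 8) in P21 midbrain, from 0.295 to 0.582. It was 0.173 ± 0.0434 (SD, n = 8) in P21 cortex, from 0.131 to 0.243. Midbrain libraries of the ages did not overlap, and the ratio was lower in cortex than in midbrain at P21, also without overlap, as Grin2b differed between the regions by more than Grin2a did. The log2 difference was 2.02 (SE 0.142) between the ages and -1.22 (SE 0.158) between the regions. By two-sided exact permutation tests these gave p = 7.94e-06 and p = 0.000155, the smallest that 125970 and 12870 regroupings can give, and adjusted p = 9.92e-06 and 0.000194 over the 10 ratios and shares of each comparison.

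The other pairs were compared in the same way. The Grin2c to Grin2b ratio was 0.105 ± 0.0140 before birth, 1.95 ± 0.333 in midbrain at P21 and 0.627 ± 0.0382 in cortex (SD, n = 12, 8 and 8). The Grin2d to Grin2b ratio was 2.67 ± 0.346, 1.73 ± 0.309 and 0.246 ± 0.0143 in the same order. In the first pair no library of a tissue reached the range of another, and in the second the ages overlapped in midbrain while cortex stood apart. The Grin2a to Grin2c ratio fell from 0.950 ± 0.188 to 0.208 ± 0.0383 with age, without overlap, and was 0.279 ± 0.0813 in cortex, where the ranges overlapped. That last difference was small against its spread (log2 0.40, SE 0.179, exact permutation p = 0.0437, adjusted p = 0.0485) and passed in neither genotype alone (exact adjusted p = 0.159 in wt/wt and 0.476 in hu/hu).

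Among the Grin2 transcripts, Grin2d made up 68.7% ± 2.53 before birth, 33.9% ± 1.86 in midbrain at P21 and 12.02% ± 0.701 in cortex (SD, n = 12, 8 and 8). Grin2c made up 2.70% ± 0.190, 38.2% ± 1.98 and 30.6% ± 1.75, and Grin2b 26.0% ± 2.39, 20.02% ± 2.63 and 48.9% ± 0.781. Grin2a held 2.58% ± 0.599, 7.89% ± 1.22 and 8.44% ± 2.05. E18.5 midbrain was therefore mostly Grin2d with Grin2b, P21 midbrain was led by Grin2c and Grin2d, and P21 cortex by Grin2b and Grin2c. Each share differed between the ages (exact permutation, largest adjusted p = 8.73e-05), and between the regions all but the Grin2a share did (adjusted p = 0.528 for Grin2a).

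With the longest transcripts as divisor and the deposited counts kept, the Grin2b share was 12.1%, 8.39% and 26.1% in the same order. The Grin2c share was then 4.11%, 52.1% and 53.3%. Its difference between the regions thus turned to 1.21 percentage points higher in cortex (exact adjusted p = 0.193). The summed Grin2 transcripts per Grin1 transcript fell with age from 1.47 ± 0.111 to 0.475 ± 0.0226 and were 0.566 ± 0.0372 in cortex, a log2 difference of 0.25 between the regions (exact adjusted p = 0.000194) that became -0.10 with the longest lengths (exact adjusted p = 0.0433). The direction of this difference thus depended on the lengths used. The summed Grin3 transcripts per Grin1 transcript were 1.04 ± 0.122, 0.177 ± 0.00878 and 0.0679 ± 0.0113, with no overlap between tissues. With the longest transcripts as lengths, both ratios to Grin1 were lower in every tissue. Before birth, the summed Grin2 and the summed Grin3 transcripts then each lay below Grin1 in every library. Whether either sum exceeds Grin1 before birth thus depended on the lengths used. The fall of both ratios with age held, as did the lack of overlap of the Grin3 ratio between tissues.

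**Figure D3:**
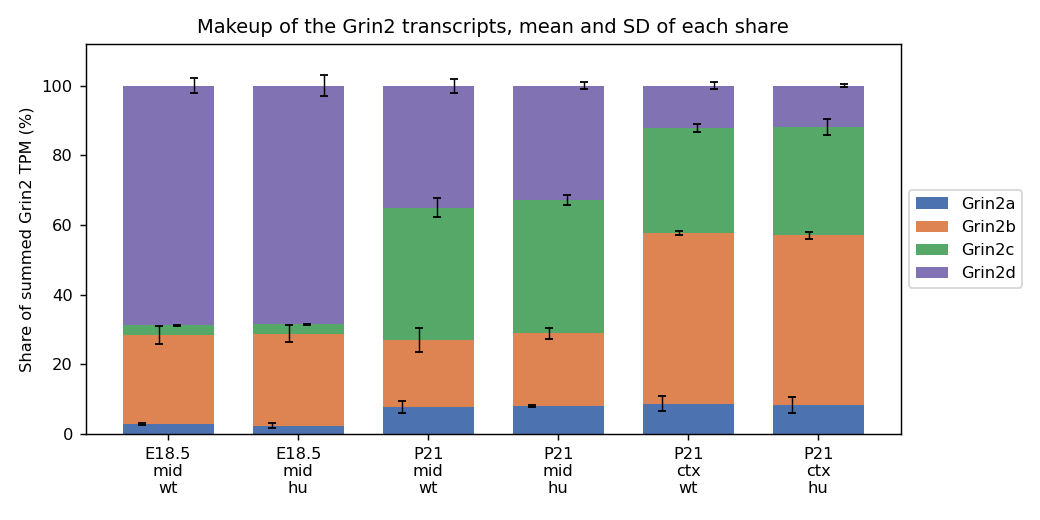
Mean share of Grin2a, Grin2b, Grin2c and Grin2d in the summed Grin2 TPM (y axis, percent) for each tissue and genotype (x axis; mid, midbrain; ctx, cortex; wt, Nova1 wt/wt; hu, Nova1 hu/hu), with bars for the SD of each share at its upper edge. Grin2d fills most of the E18.5 columns, and Grin2b about as much of the cortex columns as the other 3 genes together.

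**Figure D4:**
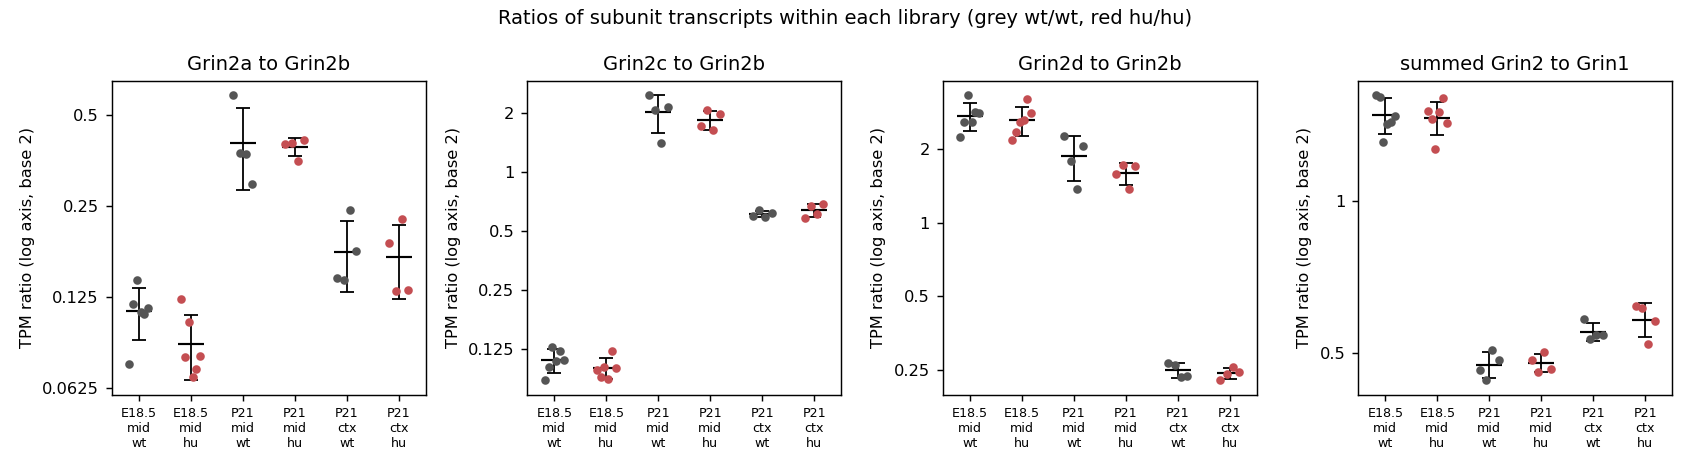
Ratio of TPM values (y axis, log axis of base 2) in each library by tissue and genotype (x axis), with mean and SD, for Grin2a to Grin2b, Grin2c to Grin2b, Grin2d to Grin2b and the summed Grin2 genes to Grin1. The Grin2a to Grin2b ratio is highest in P21 midbrain, from 0.295 to 0.582, and the genotypes overlap in every panel.

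Between Nova1 hu/hu and wt/wt, no member was called in any of the 3 tissues (embryonic midbrain, P21 midbrain, cortex), where edgeR's quasi-likelihood test called 0 of 15540, 0 of 15972 and 0 of 15767 genes (0% each). At an unadjusted p under 0.05, 1 member, Grin2a, stood in E18.5 midbrain, beside 1.29% of all genes, and none in P21 midbrain or P21 cortex, beside 2.67% and 2.85%. DESeq2 called no member either. Same-numbered libraries of the genotypes deviated together, and with that replicate number as a block 2 members, Grin2a and Grin3a, had an unadjusted p under 0.05 at E18.5, beside 5.23% of all genes, and none did in P21 midbrain or P21 cortex, beside 4.6% and 5.69%.

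Grin2a was 1.30-fold lower in hu/hu at E18.5 (2.37 ± 0.539 against 3.06 ± 0.6246 TPM, SD, n = 6 each), a log2 difference of -0.38 (SE 0.161, 95% interval -0.72 to -0.04). Its unadjusted p was 0.0310 and its adjusted p 0.9999 by edgeR's quasi-likelihood test, and 0.0223 and 0.928 with the replicate block. It was lower in hu/hu in 5 of 6 same-number pairs, the pair of replicate 1 being the exception. The ranges overlapped, and the gene was thinly covered, with 44 counts in the lowest library. At P21 its log2 difference was 0.11 (SE 0.144) in midbrain and -0.04 (SE 0.155) in cortex. The difference between the ages of the genotype effect was 0.49 on the log2 scale (SE 0.230, 95% interval 0.01 to 0.96, unadjusted p = 0.0444, adjusted p = 0.9999 by edgeR's quasi-likelihood test), and 1.86% of all genes reached an unadjusted p under 0.05 in that test, which called 0 genes.

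Grin3a at E18.5 was 70.3 ± 3.91 TPM in hu/hu and 75.0 ± 5.60 TPM in wt/wt (SD, n = 6 each), lower in 5 of 6 pairs. The log2 difference was -0.10 (SE 0.0531, unadjusted p = 0.0883 by edgeR's quasi-likelihood test) and its p with the replicate block was 0.0207 (adjusted p = 0.928). Grin3b at E18.5 was 2.12 ± 1.31 TPM in hu/hu and 1.48 ± 0.278 TPM in wt/wt, with a log2 difference of 0.50 (SE 0.297, unadjusted p = 0.109). This value rested on hu/hu replicate 5, without which it was 0.11.

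The 95% intervals, from the fit without the replicate block, give the sizes of genotype difference that this fit allows. With the block the SE was smaller for every member except Grin3b in P21 midbrain and P21 cortex. For example, it was 0.0335 against 0.0856 for Grin1 at E18.5 and 0.0707 against 0.127 for Grin2b in P21 midbrain. The sizes allowed thus depend on whether the pairing by replicate number is used. The log2 difference of Grin1 lay between -0.23 and 0.13 at E18.5, between -0.07 and 0.07 in P21 midbrain and between -0.12 and 0.03 in P21 cortex. That of Grin2b lay between -0.13 and 0.11, between -0.16 and 0.38, and between -0.08 and 0.14, and that of Grin2d between -0.26 and 0.13, between -0.19 and 0.03, and between -0.18 and 0.15. For Grin2c the intervals were -0.39 to 0.12, -0.08 to 0.13 and -0.06 to 0.24, and for Grin3a -0.21 to 0.02, -0.11 to 0.13 and -0.40 to 0.13.

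None of the 10 ratios and shares passed the test between genotypes in any tissue, with or without the pairing by replicate number. The largest log2 difference was that of Grin2a to Grin2b at E18.5, 0.0873 ± 0.0213 in hu/hu against 0.112 ± 0.0217 in wt/wt (log2 -0.36, SE 0.183), with exact permutation p = 0.0887 and adjusted p = 0.532. In P21 midbrain this ratio was 0.393 ± 0.0281 in hu/hu and 0.405 ± 0.123 in wt/wt (exact p = 1), and in P21 cortex 0.169 ± 0.0465 and 0.177 ± 0.0469 (exact p = 0.714). The design of 4 against 4 allows no p under 0.0286 by exact permutation before adjustment, and that of 6 against 6 none under 0.00216. Exact permutation within 6 pairs allows none under 0.03125. After adjustment over the 10 measures, a single measure could therefore not pass alone at 4 against 4 or with 6 pairs. For those tests the lack of a pass says little about any 1 measure. In P21 midbrain the Grin2d share was lower in hu/hu in 4 of 4 same-number pairs (33.6%, 33.1%, 31.2% and 33.3% against 35.7%, 33.98%, 32.9% and 37.3%), and so was the Grin2d to Grin2b ratio. An exact permutation within pairs gave p = 0.125 for both, the smallest that 4 pairs can give, so this design cannot pass the threshold. No genotype effect on a member differed between P21 cortex and P21 midbrain either, where edgeR's interaction test called 0 of 16345 genes and 2.28% of all genes, but no member, had an unadjusted p under 0.05.

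**Figure D5:**
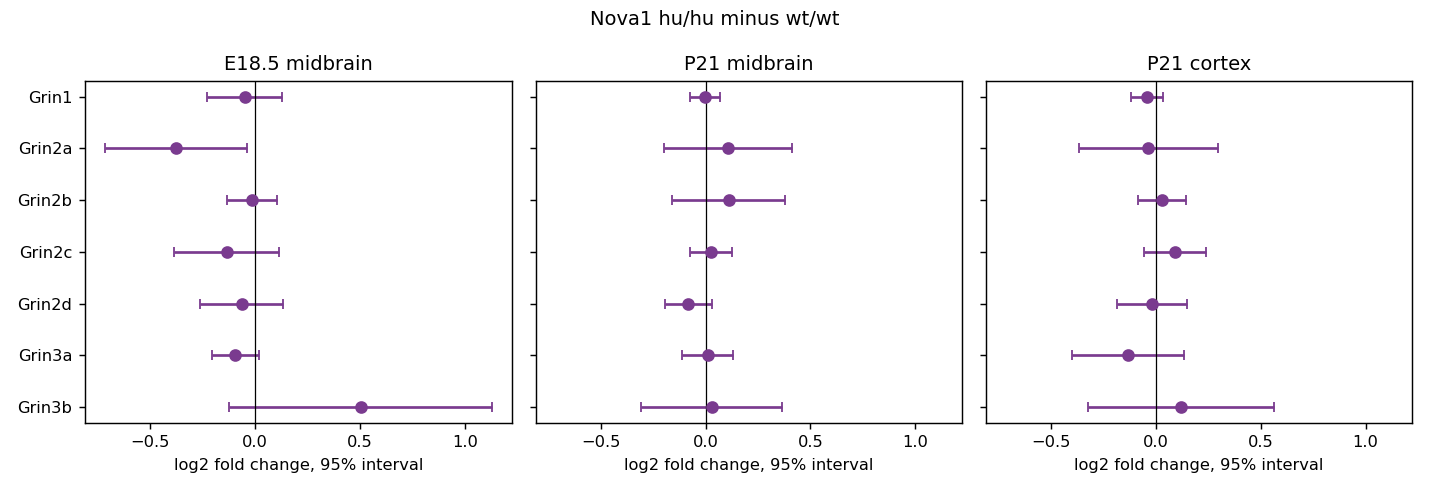
Log2 fold change between Nova1 hu/hu and wt/wt (x axis) of each subunit gene (y axis) with 95% intervals as bars, in the 3 tissues. The intervals are from the fit without the replicate block. All of them include 0 except that of Grin2a at E18.5, from -0.72 to -0.04, and Grin2a and Grin3b have the widest ones.

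Grin2c and Grin3b were read beside markers of the cells they are best known from. Cerebellar granule cell markers summed to 194 to 242 TPM before birth, 60.7 to 89.4 TPM in midbrain at P21 and 24.4 to 26.7 TPM in cortex, sums carried mostly by Zic1 (150.2, 53.7 and 12.7 TPM). With age 2 of the 6 rose, as Grin2c did, and 4 fell, and in cortex 1, Neurod1, was higher and 5 were lower. In P21 midbrain 5 of the 6 had an unadjusted p under 0.05 between genotypes, all lower in hu/hu, beside 2.67% of all genes. The 6 had a median log2 difference of -0.65 and none was called by edgeR's quasi-likelihood test, while Grin2c differed by 0.02. The difference was uneven over the libraries. Cbln3 was 5.38 and 7.04 TPM in wt/wt replicates 2 and 4, and 0.651 to 2.33 TPM in the other P21 midbrain libraries. Fat2 was 2.86 and 3.08 TPM in the same replicates and 1.31 to 1.63 TPM in the others. The summed markers of wt/wt replicate 3 (61.7 TPM) lay within the hu/hu range of 60.7 to 69.7 TPM. The defining granule gene Gabra6 averaged 0.0801 TPM at E18.5, 2.52 TPM in P21 midbrain and 0.0182 TPM in P21 cortex. Its P21 midbrain libraries varied widely, from 0.186 to 7.07 TPM. Motor neuron markers summed to 36.3 to 70.1 TPM before birth, 55.2 to 79.8 TPM in midbrain at P21 and 14.9 to 19.1 TPM in cortex, where 5 of 6 were lower than in midbrain. In the E18.5 hu/hu library with the high Grin3b value they summed to 36.3 TPM, the lowest of its group, led by Prph (10.2 TPM, also the lowest), whereas Chat (1.31 TPM) was the highest of the group and Slc18a3 (4.32 TPM) below replicate 2 alone.

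In the annotation, genes on the other strand share exon bases with 5 members (Grin1, Grin2b, Grin2c, Grin2d and Grin3b), and for Grin1 and Grin3b the partner is also a gene of the deposited tables. It is not stated whether the counting used strand, so reads cannot be told apart there. The partners of Grin2b, Grin2c and Grin2d share at most 143, 91 and 643 exon bases with them (0.6%, 1.8% and 9.7%). The antisense gene Grin1os covers 1307 exon bases of Grin1 (13.5% of its annotated exon bases) and was listed at 61.5, 155.6 and 213.8 TPM on average in the 3 tissues. Tmem259, on the other strand, covers 1059 exon bases of Grin3b (32.1%), and its group means ran from 113.6 to 157.5 TPM, far above Grin3b. In cortex against P21 midbrain Tmem259 was higher (log2 0.27) and Grin3b lower (log2 -1.24), and with age both were higher (log2 0.44 and 1.15).

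The genes with profiles most like each member over the 28 libraries, by the root mean square difference of centred log2 values, were named for description. The Grin1 profile lay nearest to Grin1os (0.0862), with which it shares exon bases, then Gas2l1 (0.0979) and Cpe (0.105). Nearest to Grin2a were Pcsk2 (0.268), Syn2 (0.269) and Myrip (0.279), and to Grin2b Pde10a (0.130), Gal3st3 (0.152) and Olfm1 (0.156). Thy1 (0.167), Kcnab2 (0.183) and Tuba4a (0.189) lay nearest to Grin2c. Sema4g (0.0785), Npas3 (0.132) and Tonsl (0.134) lay nearest to Grin2d, and Odz1 (0.143), Fstl5 (0.178) and Mtss1 (0.179) to Grin3a. The nearest to Grin3b lay further off, with 9530052E02Rik at 0.333 and Ddr1 at 0.348. The measure includes the scatter between libraries, and Grin3b was thinly counted (20 to 181 counts a library in midbrain). Its larger distances thus do not show a distinct profile. Sema4g, for example, averaged 106.3, 43.6 and 22.5 TPM in the 3 tissues, where Grin2d averaged 73.0, 30.02 and 15.3 TPM.

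Other genes of the NMDA receptor pathway were counted in the same fits. Of 12 postsynaptic scaffold genes, which hold the receptor in the synapse, 8 rose and 2 fell with age in midbrain (median log2 0.42, beside -0.02 over all genes, of which 42.4% rose and 43.3% fell). Dlg1 (log2 1.43) and Shank3 (1.24) rose most, and Shank2 (-0.24) and Homer1 (-0.19) fell. In cortex against P21 midbrain 12 of 12 were higher (median log2 1.39, beside 37.7% of all genes higher and 37.9% lower), led by Dlgap2 (2.56) and Homer1 (2.19), so the scaffold genes were uniformly higher in cortex while the receptor genes were split.

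Of 11 genes for enzymes and anchors that act on or below the receptor, 6 rose and 4 fell with age, to be read against the same shares of all genes, as are the lists that follow. The kinase gene Camk2a (log2 2.54) and the synthase gene Nos1 (1.18) rose most, and the anchor gene Akap5 (-1.15) and the kinase gene Dapk1 (-0.65) fell most. In cortex 8 were higher, led by Camk2a (3.23) and Akap5 (2.94), and 2 were lower, Nos1 (-0.94) and Fyn (-0.27). Of 10 trafficking and auxiliary genes, 4 rose with age, led by Nsmf (1.54) and Lin7b (1.54), and 4 fell, led by Lin7c (-2.57) and Ephb2 (-2.30). In cortex 6 were higher, led by the auxiliary subunit gene Neto1 (2.10) and Lin7b (1.17), and 2 were lower, Snx27 (-0.41) and Apba1 (-0.21).

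Genes for the supply of glutamate and co-agonist mostly rose with age, 9 of 11, with the glial glutamate transporter Slc1a2 at log2 3.42, and Slc1a4 fell (-0.96). The 9 include Dao, the D-amino acid oxidase that breaks down D-serine, which had 0 to 13 counts a library at E18.5 and 0 to 10 in cortex and passed the filter on low counts only through P21 midbrain (5.74 to 20.4 TPM), so it had to differ, and its fitted folds are not given. In cortex 6 were higher, led by serine racemase Srr (0.92) and Slc1a3 (0.88), and 5 were lower, among them Dao and the glycine transporter Slc6a9 (-2.27). Between genotypes no gene of these 4 lists was called in any tissue by edgeR's quasi-likelihood test. The smallest unadjusted p-values at E18.5 were 0.215 for Dlg1 among the scaffold genes, 0.202 for Ppp3ca among the enzymes and anchors, and 0.262 for Snx27 among the trafficking genes. In P21 midbrain they were 0.228 for Dlg2, 0.555 for Ptpn5, 0.215 for Ephb2 and 0.126 for Glul, and in P21 cortex 0.225 for Shank1, 0.0757 for Dapk1, 0.364 for Neto1 and 0.0441 for Glul.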

How the data were processed

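RNA from midbrain and cortex was sequenced as 125-nt paired-end polyA libraries. The authors aligned reads with OLego 1.1.7 to mm10 and counted them per gene with Quantas 1.0.9. The deposited tables give, for 23038 genes, estimated counts (expected counts, not all whole), exon length and RPKM, which the authors computed from that count and length; RPKM was not tested. The annotation version and the use of strand are not given in the sources used here. Counts were rounded to whole numbers for tests, and TPM was computed from unrounded counts. edgeR 4.0.16 (R 4.3.3) was run with TMM factors, filterByExpr and the quasi-likelihood test, and genes were called at p under 0.05 and adjusted p under 0.1. Ratios were tested by two-sided exact permutation in Python 3.11.15 at an adjusted p under 0.05. The tests were checked on simulated counts.

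Alternatives were relative log expression factors, DESeq2 1.42.0, a filter of 10 counts in each library or none, a stricter adjusted p (0.05), a replicate block, each genotype alone, all 28 libraries together and each library left out, and for ratios also the linear scale and the longest transcript as length. Named genes are all 7 members and, of each pathway list, the 2 called genes with the largest change in each direction (between genotypes, the gene with the smallest p) and, for each member, the 3 genes of nearest profile (log2 of TPM plus 0.1, mean TPM at least 1). The members and lists were chosen with earlier results of these data known. Of the symbols looked up, 5 were matched by gene ID. Some genes that this rule names are not reported here.

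Same-numbered hu/hu and wt/wt libraries deviated together (correlations over 0.1 in every pair: 0.313 to 0.566 at E18.5, 0.292 to 0.374 for P21 midbrain, 0.305 to 0.391 for cortex), so the numbers pair the genotypes. The replicate numbers come from the sample titles. The labels do not say that each library is a separate animal, so p-values measure the spread between these libraries. Cerebellum was not analysed here. Start-site windows come from RefSeq (GRCm38.p6) and transcript lengths from GENCODE on GRCm38, the assembly that mm10 names.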

Additional observations from a re-analysis of the deposited data

Results flagged for a closer look

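In 42 groups of member levels and 60 groups of ratios and shares, 3 and 2 libraries stood apart from the rest of their group by more than Dixon's 95% critical value, where chance gives about 1 in 20 groups. Grin3b in E18.5 midbrain hu/hu was at 4.67 TPM in replicate 5 and at 1.095 to 2.21 TPM in the other 5. The same library had the highest Grin2c to Grin2b ratio of its group, 0.123 against 0.0883 to 0.101 in the others. Grin3a in E18.5 midbrain wt/wt was at 86.0 TPM in replicate 3 and at 70.4 to 74.7 TPM in the others. Grin1 in P21 midbrain hu/hu was at 180.8 TPM in replicate 4 against 187.6 to 188.6 TPM, a gap that is small beside the level. The Grin2c share of the Grin2 transcripts in P21 midbrain wt/wt was 34.1% in replicate 3 and 39.2% to 39.7% in the others.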

How the results depend on the processing

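The count of members called kept its value under all 49 alternative fits and in all 100 fits that left out 1 library: 7 in the age and region comparisons, and 0 in the genotype comparisons and in both tests of a difference between genotype effects. All 343 log2 fold changes of members under the other settings kept their direction and their side of the threshold. Leaving out 1 library turned 37 of 700 member values, none of them called: the genotype log2 difference at E18.5 of Grin1 (-0.10 to 0.012) and Grin2b (-0.045 to 0.021), in P21 midbrain of Grin1 (-0.015 to 0.019), Grin2a (-0.042 to 0.23), Grin2c (-0.0040 to 0.046), Grin3a (-0.028 to 0.054) and Grin3b (-0.086 to 0.14), and in cortex of Grin2a (-0.15 to 0.12), Grin2b (-0.00050 to 0.074), Grin2d (-0.074 to 0.036) and Grin3a (-0.21 to 0.022). The difference of genotype effects between the ages turned for Grin1 (-0.0099 to 0.10) and Grin2d (-0.064 to 0.065), and between the regions for Grin2a (-0.27 to 0.012), Grin2b (-0.25 to 0.015), Grin3a (-0.22 to 0.010) and Grin3b (-0.023 to 0.21). With the longest transcript as length, the summed Grin2 to Grin1 ratio turned between the regions (log2 -0.10) and between genotypes in P21 midbrain (log2 -0.0022), and the Grin2c share turned between the regions (1.21 percentage points), because the weight of each gene in a sum changes with its length. Leaving out 1 library moved the log2 difference of Grin2a to Grin2b between genotypes from -0.47 to -0.29 at E18.5, from -0.14 to 0.19 in P21 midbrain and from -0.22 to 0.10 in P21 cortex. In all, 29 of 640 ratio values turned when 1 library was left out, none of them past the threshold. Between genotypes at E18.5 these were the ratios to Grin1 of the summed Grin2 (log2 -0.053 to 0.022) and summed Grin3 genes (-0.090 to 0.017) and the Grin2d share (-1.16 to 0.58 percentage points). In P21 midbrain they were Grin2a to Grin2c (-0.073 to 0.24), both sums (-0.018 to 0.048 and -0.029 to 0.037) and the shares of Grin2a (-0.31 to 0.99) and Grin2c (-1.04 to 0.86), and in cortex Grin2a to Grin2c (-0.30 to 0.055), summed Grin3 (-0.15 to 0.078) and the shares of Grin2a (-1.245 to 0.63) and Grin2b (-0.71 to 0.072). The Grin2a to Grin2c difference between the regions was log2 0.51 in wt/wt and 0.28 in hu/hu alone, past the threshold in neither, and ran from 0.31 to 0.47 with 1 library left out (exact adjusted p from 0.0226 to 0.0993), losing the call in 10 of 16 such fits. The Grin2a share differed between the regions with the longest lengths (1.09 percentage points, exact adjusted p = 0.0297). The replicate block changed no call of a member. In the region comparison it paired same-numbered cortex and midbrain libraries of a genotype. Their deviations correlated at -0.296 to -0.181 in hu/hu and -0.306 to -0.113 in wt/wt, so that pairing is not borne out. Between the ages in midbrain the correlations ran from -0.218 to 0.269 in hu/hu and from -0.0577 to 0.186 in wt/wt. Depth limited Grin2a, Grin2c and Grin3b at E18.5, which had 20 to 153 counts a library.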
